A study of Mus musculus with 34 samples.

Results

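The trimethylation of histone H3 at lysine 27 (H3K27me3) was compared before and after LPS in bone marrow-derived dendritic cells (BMDCs) that keep CTCF. The 2 lists of broad ChIP-seq peaks compared here were chosen by antibody, genotype and treatment. They are 2 of the 30 peak lists of the series, which holds 34 samples. The unstimulated list (WT) held 96475 regions and the list after LPS (WTLPS) held 65880. Both come from C57BL/6 mice that the labels give as 8 weeks old, and both carried CreER, a Cre recombinase that works only with tamoxifen, without loxP-flanked Ctcf alleles. Bone marrow was cultured for 6 days with GM-CSF, and 4-OH tamoxifen is given in the labels, for the first day, as the means of deleting Ctcf. WTLPS cells were given 100 ng/ml LPS, the bacterial ligand of TLR4, for 3 h. The lists of CTCF-KO cells (CreER;CTCFfl/fl), unstimulated (KO) and after the same LPS treatment (KOLPS), served for comparison. The promoter that drives CreER is not given in the labels, while the study's methods name the line Rosa26-CreER. GM-CSF cultures hold a mixture of dendritic and related myeloid cells. Per the study's methods, the BMDCs were cells selected from such cultures with microbeads for the surface protein CD11c, before LPS was given.

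H3K27me3 is laid down by Polycomb repressive complex 2, whose catalytic subunit is EZH2 or EZH1, and is bound by the CBX proteins of Polycomb repressive complex 1. It spreads over domains of very different width and is known for holding developmental regulators, such as the Hox genes, silent in cells that do not use them. In mammals such domains often start from CpG islands. The demethylases KDM6A and KDM6B remove the mark, and KDM6B is known as an LPS-inducible gene of myeloid cells. Because a width is read from where a peak caller ends a region, the lists were compared below by width class, by base and by promoter.

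A promoter was the 5001 bp centred on the start of the longest transcript of a protein-coding gene. Each of the 21938 promoters was put in a class by its widest H3K27me3 peak: over 1 kb in both lists, in WT only, in WTLPS only, or in neither list. The 250 bases before the start site of 5 genes show what these promoters are made of. They are the gene with the widest peak in each class, among genes that the limits on printed bases given below allow. For WTLPS only that is Ermap, with a WTLPS peak of 3698 bp, while the widest in that class was 4356 bp. The LPS-inducible cytokine gene with the widest peak in WT only was added. For the class with none, the widest unstimulated H3K4me3 peak was taken, among promoters with H3K4me3 in both conditions and no H3K27me3 peak. Each runs 5′ to 3′ towards the start site on GRCm38 (mm10), with every CG in capitals, the dinucleotide that carries DNA methylation and that is dense in CpG islands.
Fam71f1 (both lists; chr6:29318890-29319139, plus strand): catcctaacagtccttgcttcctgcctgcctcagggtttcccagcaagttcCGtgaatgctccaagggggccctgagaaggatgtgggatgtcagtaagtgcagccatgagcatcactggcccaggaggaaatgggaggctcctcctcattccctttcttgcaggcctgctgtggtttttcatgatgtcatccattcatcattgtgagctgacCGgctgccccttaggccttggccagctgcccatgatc
Apoh (WT only; chr11:108395043-108395292, plus strand): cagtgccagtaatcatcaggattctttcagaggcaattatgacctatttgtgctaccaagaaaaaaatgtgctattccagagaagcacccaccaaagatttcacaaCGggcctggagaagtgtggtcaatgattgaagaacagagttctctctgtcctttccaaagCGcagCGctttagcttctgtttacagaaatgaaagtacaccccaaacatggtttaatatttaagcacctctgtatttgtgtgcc
Il12a (WT only; chr3:68690394-68690643, plus strand): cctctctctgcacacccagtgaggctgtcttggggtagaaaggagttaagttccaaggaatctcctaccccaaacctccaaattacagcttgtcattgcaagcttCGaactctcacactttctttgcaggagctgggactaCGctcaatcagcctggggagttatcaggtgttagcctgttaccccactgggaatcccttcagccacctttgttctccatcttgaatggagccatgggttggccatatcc
Ermap (WTLPS only; chr4:119190012-119190261, minus strand): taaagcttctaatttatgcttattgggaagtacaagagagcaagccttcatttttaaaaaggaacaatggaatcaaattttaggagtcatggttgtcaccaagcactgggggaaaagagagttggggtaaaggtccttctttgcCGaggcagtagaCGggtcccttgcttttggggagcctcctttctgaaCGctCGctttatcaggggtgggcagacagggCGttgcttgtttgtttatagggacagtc
Zeb2 (neither list; chr2:45117396-45117645, minus strand): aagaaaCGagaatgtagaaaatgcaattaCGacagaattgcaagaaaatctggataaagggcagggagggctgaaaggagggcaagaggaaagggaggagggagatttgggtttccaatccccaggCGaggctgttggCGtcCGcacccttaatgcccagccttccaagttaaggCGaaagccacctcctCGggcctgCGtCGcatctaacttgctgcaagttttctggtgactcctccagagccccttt

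Fam71f1 held 2 CG in these bases, although it lay under a WT peak of 58452 bp. Apoh, a plasma apolipoprotein, held 3 CG, and Il12a, the p35 subunit of interleukin 12, held 2. Ermap, an erythroid membrane protein, held 5, and Zeb2, a transcription factor, held 9. Over whole classes, the median was 13.0 CG at the 2249 promoters with a peak over 1 kb in both lists, 9 at the 1693 in WT only, 10 at the 139 in WTLPS only and 8 at the 17857 in neither. A promoter was called CpG-rich when these bases were at least 50% G and C and held at least 0.6 of the CG that their C and G would give by chance pairing. That held at 49.1% of promoters in both lists (95% Wilson interval 47.1 to 51.2), at 37.7% in WT only (35.5 to 40.1), at 36.7% in WTLPS only (29.1 to 45.0) and at 39.3% of all promoters. Intervals here and below cover counting error only. The promoters that kept a wide peak were thus the CpG-rich ones more often than those in WT only, with intervals that did not overlap, while WT only promoters lay near the share of all promoters.

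WTLPS peaks covered 56.7 Mb, or 2.08% of the genome, and WT peaks covered 117 Mb, or 4.29%, a ratio of 0.484. With 1 list per condition there is no replicate to give an error and no test was run. The background level of the libraries, recovered from the deposited fold and −log10 p of short uniform peaks, was 1.12 fragments per base in WT and 0.83 in WTLPS, a ratio of 0.741. A short uniform stretch at that background would need a fold of 2.83 in WT and 3.28 in WTLPS to reach the lowest −log10 p of its list, a value that does not bound the broad regions, whose deposited folds are means and can lie lower. The part of this difference in the results was not tested, and a change of the mark, of the coverage and of the share of fragments in peaks cannot be told apart in these lists. Promoters of cell type markers were read with H3K4me3, which marks active and poised start sites. It lay at 12 of 12 marker promoters of dendritic cells and their myeloid relatives in both conditions. It also lay at 1 of 4 T cell, 2 of 4 B cell and 1 of 2 erythroid marker promoters, and at 56.7% of all promoters in WT. An H3K27me3 peak of any width lay at 4 of the 12 in WT and 2 in WTLPS, against 27.1 and 20.8% of all promoters. For T cell markers the counts were 4 and 4, for B cell markers 3 and 2 and for erythroid markers 0 and 1. The set cannot tell dendritic cells from related myeloid cells.

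Wide peaks differed most between the lists. Regions of over 5 kb covered 26.7 Mb in WT and 5.86 Mb in WTLPS (ratio 0.219), those of 1 to 5 kb 60.2 and 28.8 Mb (0.479) and those under 1 kb 30.1 and 22.0 Mb (0.731). They numbered 3065 and 769 over 5 kb, 29883 and 15367 at 1 to 5 kb, and 63527 and 49744 under 1 kb. The widest region was 91011 bp in WT and 45485 bp in WTLPS.

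Almost every wide WT region was met by a WTLPS peak, but most of these were narrower. Of WT regions over 5 kb, 99.7% (99.5 to 99.9) shared at least 1 bp with the WTLPS list, and 21.0% (19.6 to 22.5) shared it with a region of the same class. At 1 to 5 kb the shares were 67.5% (67.0 to 68.0) and 28.7% (28.2 to 29.2), and under 1 kb they were 21.1% (20.8 to 21.4) and 16.8% (16.5 to 17.1). Read from WTLPS, 100% of the 769 regions over 5 kb met a WT peak, as did 95.9% (95.5 to 96.2) at 1 to 5 kb and 61.9% (61.5 to 62.3) under 1 kb. A WT region of the same class was met by 92.6% (90.5 to 94.2) over 5 kb, 56.2% (55.4 to 57.0) at 1 to 5 kb and 21.5% (21.1 to 21.8) under 1 kb. In bases, the lists shared 40.5 Mb, which was 34.6% of the WT and 71.4% of the WTLPS bases. WTLPS peaks covered 62.1% of the bases of WT regions over 5 kb, 33.0% at 1 to 5 kb and 13.4% under 1 kb.

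**Figure D1:**
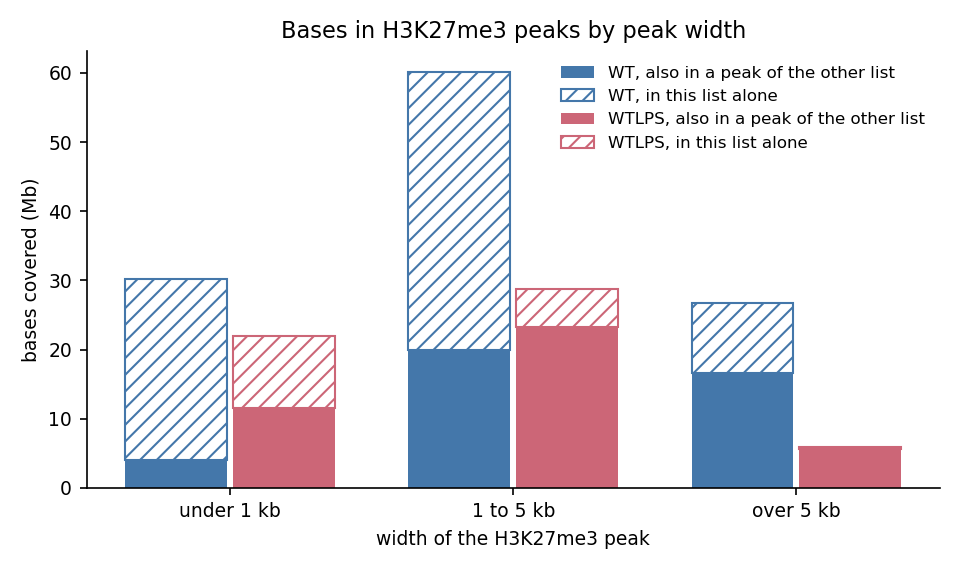
Bases covered by H3K27me3 peaks (Mb, vertical axis) in each width class (horizontal axis) for WT and WTLPS; filled parts lie in a peak of the other list too and hatched parts do not. The WT bars are taller in all 3 classes (30.1, 60.2 and 26.7 Mb against 22.0, 28.8 and 5.86 Mb), and almost all of the WTLPS bases over 5 kb lie in WT peaks.

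Of the 3065 WT regions over 5 kb, 2693 (87.9%) met at least 2 WTLPS peaks, with a median of 3.00 and up to 18 pieces. The median share of such a region covered by WTLPS peaks was 60.0%, with quartiles of 42.8 and 74.2%. The widest WTLPS piece was over 5 kb in 644 of these regions, 1 to 5 kb in 2159 and under 1 kb in 254, and 8 regions had none. In the other direction, 596 of the 769 WTLPS regions over 5 kb met a single WT region and 173 met 2 or 3, so that pieces were joined in WTLPS there. Regions without overlap were narrow and lay near peaks of the other list. The 59857 in WT had a median width of 489 bp, and 58.6% of them lay within 5 kb of a WTLPS peak. The 19595 in WTLPS had a median width of 313 bp, and 81.8% of them lay within 5 kb of a WT peak. The widest without any overlap measured 5937 bp in WT, at the promoter of Gpx5 (chr13:21286196-21292132), and 2611 bp in WTLPS (chr17:6860016-6862626), with no protein-coding promoter.

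Of the 10 widest WTLPS regions, 3 lay in one of the 10 widest WT regions. The widest in WT (chr12:12472681-12563691) held no protein-coding promoter and was covered to 92.4% by 7 WTLPS peaks, the widest of them the 45485 bp region. Among the 10 widest in WT were the region at Fam71f1 and Calu (58452 bp, 80.4% covered in 12 pieces), that at Sytl2 (57067 bp, 87.1% in 10 pieces), that at Epn2 (55349 bp, 88.7% in 9 pieces) and that from Hoxc13 to Hoxc9 (54886 bp, 78.8% in 12 pieces). The WTLPS region at Gimap6 and Gimap7, GTPases of lymphocytes, was 28227 bp wide and lay wholly inside 1 WT region of 42346 bp. At the interferon genes Ifna4 and Ifna1 the order was the other way. A single WTLPS region of 20197 bp lay over both promoters, where WT had a region of 5377 bp at Ifna4 and one of 17071 bp at Ifna1.

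The 4 Hox clusters were covered less in WTLPS, 3 of them by more and narrower peaks. From the first to the last Hox gene, the Hoxc cluster was covered to 94.1% by 10 peaks in WT and to 74.0% by 26 in WTLPS, and its widest peak measured 54886 and 10692 bp. Hoxb was covered to 68.5% by 27 and to 40.1% by 45 peaks, with widest peaks of 32477 and 8109 bp. Hoxd was covered to 78.2% by 20 and to 62.5% by 30 peaks (12372 and 6445 bp). Hoxa was covered to 58.7% by 19 peaks in WT and to 46.9%, also by 19, in WTLPS (24339 and 11213 bp). In the lists of CTCF-KO cells, coverage of the clusters ranged from 60.4 to 91.7% in KO and from 17.8 to 32.8% in KOLPS.

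At promoters, 3942 genes held an H3K27me3 peak over 1 kb in WT and 2388 in WTLPS. Of all 21938 promoters, 7.72% were in WT only and 0.634% in WTLPS only, so that 42.9% of those over 1 kb in WT had none over 1 kb in WTLPS and 5.82% of those over 1 kb in WTLPS had none over 1 kb in WT. Most of these had a narrower peak in the other list. No WTLPS peak of any width lay at 524 of the 1693 WT only promoters (2.39% of all), and no WT peak at 23 of the 139 WTLPS only promoters (0.105%). Many lay close to the limit. In WT only, 559 promoters had a WT peak of 1 to 1.5 kb and 719 had a WTLPS peak of 0.5 to 1 kb. In WTLPS only, 91 of the 139 had a WTLPS peak of 1 to 1.5 kb and 83 had a WT peak of 0.5 to 1 kb. Just inside and just outside the limit lay peaks of 1001 and 1000 bp. Among the 2249 promoters with a peak over 1 kb in both lists, the WTLPS peak was the wider one at 312 (13.9%), and the median widest peak was 3800 bp in WT and 2124 bp in WTLPS.

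How many promoters had a peak over 1 kb in WTLPS as well followed the WT width. The share was 20.8% (147 of 706) for WT peaks of 1 to 1.5 kb, 35.0% (31.2 to 39.1) at 1.5 to 2 kb and 54.4% (51.0 to 57.7) at 2 to 3 kb. It was 69.9% (66.9 to 72.8) at 3 to 5 kb, 84.0% (81.0 to 86.6) at 5 to 10 kb and 94.2% (90.9 to 96.4) over 10 kb. At 2 to 5 kb, CpG-rich promoters had one in 68.0% (64.6 to 71.1) and the others in 58.0% (54.8 to 61.1). In the same width range, promoters with a WT peak of H3K27ac, a mark of active promoters and enhancers, had one in 44.0% (37.1 to 51.1) and those without in 64.9% (62.5 to 67.2). Promoters with H3K4me3 in WT had one in 66.2% (63.2 to 69.1) and those without in 58.0% (54.5 to 61.5). At 1 to 2 kb and over 5 kb the intervals overlapped for both marks, with 22.3% (17.0 to 28.7) against 27.9% (25.3 to 30.7) and 77.9% (66.7 to 86.2) against 87.7% (85.4 to 89.7) for H3K27ac.

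**Figure D2:**
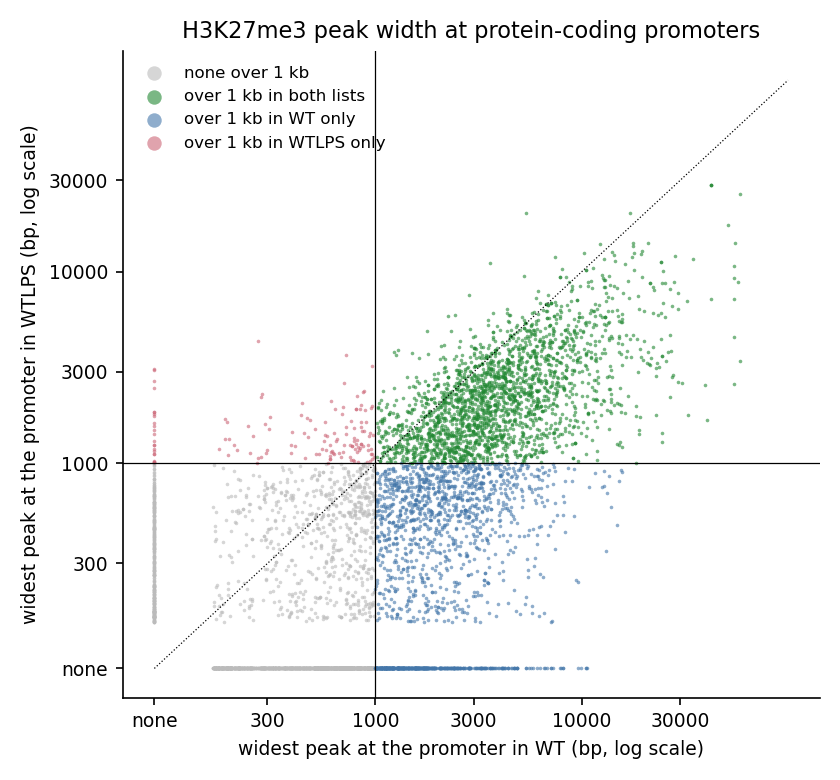
Widest H3K27me3 peak at each protein-coding promoter in WT (horizontal axis) and WTLPS (vertical axis), in bp on log scales, with promoters that have no peak in a list drawn at "none"; 1 point is 1 promoter with a peak in either list, lines mark 1 kb and the dotted line marks equal width. Most points with a peak over 1 kb lie below the dotted line, and the 1693 promoters in WT only outnumber the 139 in WTLPS only.

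Peaks lay to the sides of start sites more often than on them. Among promoters with a peak over 1 kb in both lists, 75.9% were inside a WT peak 1500 bp before the start site and 29.4% at the start site itself, and the WTLPS values were 57.1 and 14.8%. In WT only, 47.0% were inside a WT peak 1250 bp before the start site and 16.7% (15.0 to 18.6) at it, and 2.54% (1.89 to 3.40) were inside a WTLPS peak there. The share at the start site differed by H3K4me3. In the class with both lists, the start site lay inside a WT peak at 21.6% (19.4 to 24.0) of the 1267 promoters with H3K4me3 in both conditions and at 41.5% (38.2 to 44.9) of the 826 with none. At 10000 bp before the start site, genes of every class were inside a WT peak more often than a WTLPS peak. The shares were 17.9 and 8.45% in WT only and 30.0 and 18.6% in both lists. They were 13.7 and 7.19% in WTLPS only and 4.24 and 1.89% in neither list, so at this distance it was not particular to WT only genes. Just outside the promoter, at 2750 bp before the start site, WTLPS only genes went the other way (10.8% in WT and 29.5% in WTLPS). Promoters made up 9.28% of the bases in WT peaks and 10.7% in WTLPS peaks, against 3.77% of the genome.

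**Figure D3:**
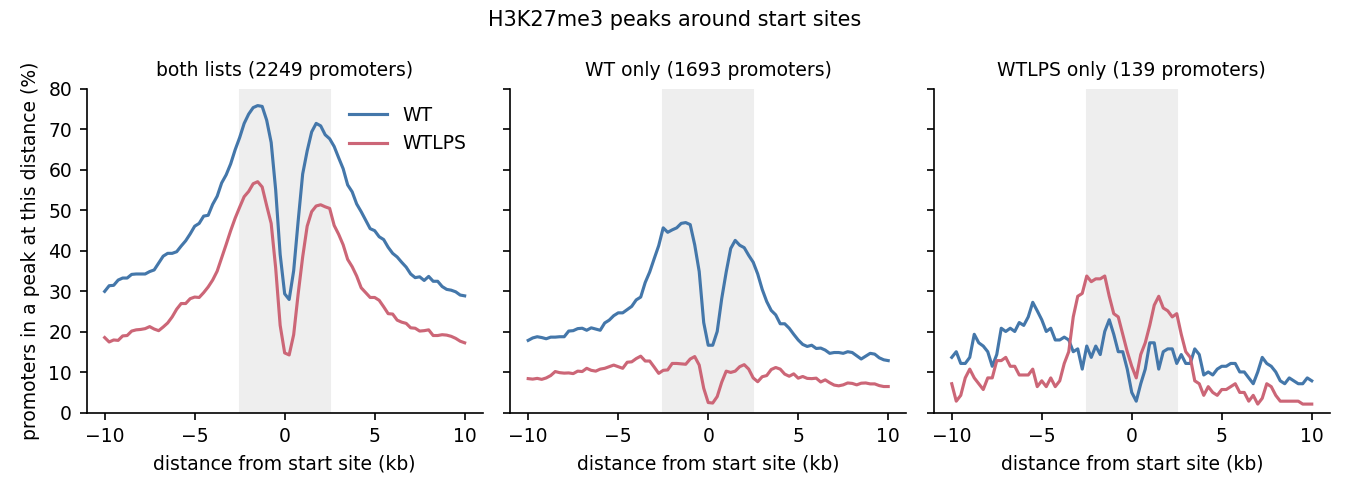
Share of promoters inside an H3K27me3 peak (%, vertical axis) by distance from the start site (kb, horizontal axis, transcription to the right) for the classes both lists, WT only and WTLPS only, with WT and WTLPS as lines and the promoter window shaded. Both lines dip at the start site in the class with both lists, to 29.4% in WT and 14.8% in WTLPS.

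The promoters with a WT peak over 1 kb and no WTLPS peak were led, among named genes and with 1 gene per peak, by Zfp946 (WT peak of 10592 bp), Hcfc2 (10495 bp), Pax7 (10436 bp), Pkd2 (9955 bp), Exosc2 (9557 bp) and Gpr89 (8109 bp). Tgm7 (7919 bp), Akr1c12 (7822 bp), Smug1 (7278 bp), Cmtm1 (7090 bp), Cryba2 (6810 bp) and Stx18 (6622 bp) followed. Pax7 (start site on chromosome 4 at 139833528) is the transcription factor of muscle satellite cells, Pkd2 a calcium channel of the primary cilium, Exosc2 a subunit of the RNA exosome and Smug1 a DNA glycosylase. These peaks reached into the promoter from outside. Their edges lay 318 bp (Cryba2) to 2436 bp (Hcfc2) from the start site, and 65 bp (Hcfc2) to 3056 bp (Pax7) of the promoter lay in WT peaks. All 12 were wider than the widest WT region without overlap, so each met a WTLPS peak beyond the promoter. H3K4me3 lay at 7 of the 12 promoters in both conditions, near its share of all promoters (56.7% in WT). A KO peak over 1 kb lay at 9 of the 12, against 42.9% of the 524 promoters without a WTLPS peak and 18.5% of all. Among the 9 were Gpr89 (10735 bp) and Pax7 (4099 bp), but not Hcfc2, which had no KO peak.

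At 60 of these 524 promoters (11.5%) the start site itself lay in a WT peak, 48 of them of named genes. That share was 16.7% in WT only as a whole and 4.62% of all promoters. Chosen after the values were seen, Ehd3, a membrane trafficking ATPase, had 4572 bp of its promoter in WT peaks, Fat2, an atypical cadherin, 3958 bp, and Tcf7, a transcription factor of T cells, 4341 bp. All 3 had 0 bp in WTLPS peaks, which follows from how the 524 were chosen. In KO the same promoters had 2348, 1467 and 1902 bp in peaks. Among the named genes of this kind, the widest WT peak at the promoter was that of Prob1 (6096 bp).

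The promoters with a WTLPS peak over 1 kb and no WT peak were led by Urb1 (3092 bp), Zfp101 (3063 bp), Smarca2 (2700 bp), Sc5d (2486 bp), Acoxl (1862 bp) and Ybx3 (1846 bp). Hspa1l (1801 bp), Ptgs1 (1759 bp), Zfp367 (1617 bp), Akap13 (1573 bp), Spryd4 (1430 bp) and Stfa3 (1314 bp) followed. Smarca2 is an ATPase of SWI/SNF chromatin remodelling complexes, Sc5d an enzyme of cholesterol synthesis, Ptgs1 the constitutive cyclooxygenase and Stfa3 a cysteine protease inhibitor of myeloid cells. All 12 peaks ended at least 1504 bp (Ybx3) from the start site, and none lay within 1 kb of it. H3K4me3 lay at 10 of the 12 promoters in both conditions, against 49.6% of WTLPS only and 56.7% of all promoters in WT. The peak near Sc5d had no WT overlap anywhere. In unstimulated KO cells, 7 of the 12 held a peak over 1 kb, the widest at Ptgs1 (5231 bp), so these promoters were not without the mark in every unstimulated list. The share with a KO peak over 1 kb was 54.0% in WTLPS only and 18.5% of all promoters. Of the 23 promoters of this kind, 1 had its start site in a WTLPS peak.

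Wide H3K27me3 peaks lay at some LPS-inducible genes, in WT at shares near or above that of all promoters (3942 of 21938). Of 48 cytokine and chemokine genes found in the annotation, 12 held a WT peak over 1 kb, of which 4 also held one in WTLPS and 8 did not. Of 55 other LPS-inducible genes, 10 held one in WT, 1 of them also in WTLPS and 9 not. No gene of either list was in WTLPS only. Those 66.7% of the first list and 9 of 10 of the second without a WTLPS peak over 1 kb compare with 42.9% over all promoters with a WT peak over 1 kb, at a median WT width of 2860 and 2006 bp against 2836 bp. They rest on few genes. With −log10 q of at least 2, 2 of 5 cytokine and chemokine genes and 2 of 2 others were in WT only, against 44.4% of all promoters, so that the cytokine and chemokine list no longer lay above it. With peaks under 1 kb apart merged they were 6 of 13 and 8 of 10, against 38.2%. Of 39 interferon-stimulated genes, Rtp4 alone held one in WT (5163 bp) and its WTLPS peak was 676 bp wide.

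Il12a (start site on chromosome 3 at 68690644), whose promoter sequence is given above, had a WT peak of 5037 bp that ran from -3066 to 1970 bp relative to its start site. In WTLPS the widest peak there was 948 bp, the start site lay between peaks, and 1876 of the 5001 bp were in peaks against 4471 in WT. H3K27ac was listed at this promoter in WTLPS and not in WT, and H3K4me3 in both. Cxcl10 and Cxcl9, chemokines for T cells, had WT peaks of 1715 and 1491 bp. WTLPS had no peak at Cxcl10 and one of 190 bp at Cxcl9, and p65 (RelA, NF-κB) was listed at Cxcl10 in both conditions and at Cxcl9 in WTLPS. The Cxcl10 peak lay at the edge of the promoter, with 532 bp inside. Cxcl1, a neutrophil chemokine, had a WT peak of 1060 bp and Il20 one of 1234 bp, with none in WTLPS. Il24 (4333 and 820 bp), Ccl8 (2959 and 428 bp) and Cxcl5 (2209 and 652 bp) had narrower WTLPS peaks. At these 8 promoters, H3K27ac was listed at 3 in WT and 5 in WTLPS, and 4 of them held a KO peak over 1 kb. The whole WT only class had H3K27ac at 16.1% in WT and 15.4% in WTLPS, and all promoters at 44.1 and 41.3%. A KO peak over 1 kb lay at 63.4% of the WT only class. With 8 genes, the step from 3 to 5 rests on few promoters.

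The 4 cytokine and chemokine genes with wide peaks in both lists were Csf2, Ccl11, Ccl24 and Csf1. Csf2, which encodes GM-CSF, had 18890 bp in WT and 6405 bp in WTLPS. Its start site lay in a gap between WT peaks and inside a WTLPS peak of 1443 bp, and no H3K4me3 was listed there in either condition. Ccl11, an eosinophil chemokine, had 12285 bp in WT and 13970 bp in WTLPS, and its promoter lay wholly in a peak in both. Ccl24 had 6202 and 2690 bp and Csf1, the growth factor of macrophages, 2760 and 1221 bp.

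Among the other LPS-inducible genes, Cd83, a surface marker of mature dendritic cells (start site on chromosome 13 at 43784775), had a WT peak of 1801 bp that ended at -309 bp relative to its start site, and WTLPS had no peak within 15 kb. Edn1 (2916 bp), which encodes endothelin, and Egr3 (1132 bp), an early response transcription factor, had no WTLPS peak at the promoter either. Ch25h, cholesterol 25-hydroxylase, had 3528 and 590 bp, F3, tissue factor, 3186 and 940 bp, Arg2, arginase 2, 2151 and 464 bp, Hdc, histidine decarboxylase, 1862 and 352 bp, and Slamf1 1539 and 408 bp. Among the 9 in WT only, H3K27ac was listed at 3 in WT and at 5 in WTLPS, again few genes. The whole WT only class had it at 16.1 and 15.4%, and all promoters at 44.1 and 41.3%. Thbs1, thrombospondin, had 1089 bp in WT and 1389 bp in WTLPS.

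**Figure D4:**
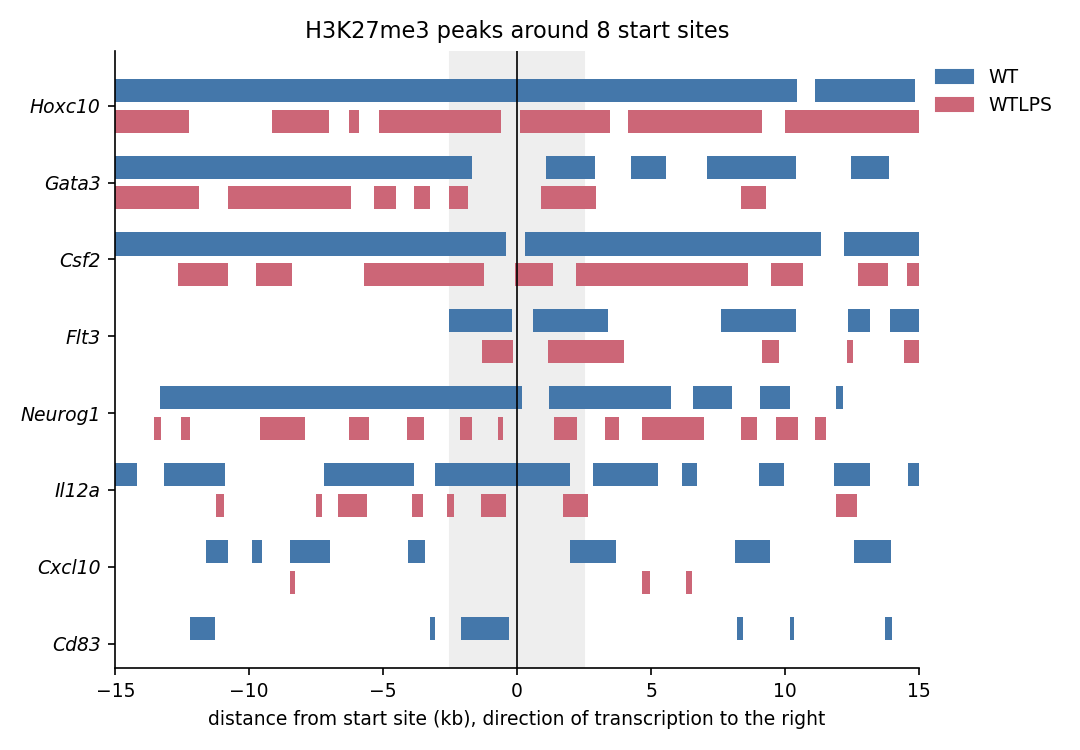
H3K27me3 peaks of WT (upper bar) and WTLPS (lower bar) by distance from the start site (kb, horizontal axis, transcription to the right) for 8 genes (vertical axis), with the promoter window shaded. Wide WT regions at Hoxc10, Gata3 and Neurog1 stand over several WTLPS pieces, and no WTLPS bar is drawn at Cd83.

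Developmental regulators held wide peaks in both lists. Of 39 Hox genes, 36 held a peak over 1 kb in WT and 34 of these also in WTLPS, and the median WT width was 9493 bp. The exceptions were Hoxa4 (3615 bp in WT, 693 bp in WTLPS) and Hoxa5 (1050 bp in WT, none in WTLPS). Hoxc10, Hoxc11, Hoxc12 and Hoxc13 lay under the same WT region of 54886 bp, and their widest WTLPS peaks measured 4562, 10692, 2591 and 9229 bp. Of 162 developmental transcription factors, 154 held one in WT and 142 of these also in WTLPS, at a median WT width of 8121 bp. The shares with none over 1 kb in WTLPS, 5.56 and 7.79%, lie below the 42.9% of all promoters with a WT peak over 1 kb. Their WT peaks were also wider, and beside the 84.0% (81.0 to 86.6) that had one in WTLPS over all promoters with WT peaks of 5 to 10 kb, the shares of 94.4% (81.9 to 98.5) for Hox genes and 92.2% (86.9 to 95.5) for developmental transcription factors stand closer.

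The developmental transcription factors with the widest WT peaks of both lists were Sim1 (32607 bp in WT, 1790 bp in WTLPS), Nr2f1 (30470 and 2624 bp), Zic2 (29215 and 2665 bp) and Tlx1 (26766 and 4702 bp). The 12 in WT only were Neurog1 (13493 bp in WT, 856 bp in WTLPS), Irx5 (12840 and 916 bp), Sim2 (11545 and 895 bp), Pax7, Pax3 (6522 and 890 bp), Gsx1 (6193 and 918 bp), Prrx2 (5136 and 718 bp), Tcf15 (5012 and 926 bp), Nkx6-2 (2766 and 893 bp), Msx1 (1817 and 784 bp), Nr5a1 (1717 and 240 bp) and Cdx1 (1624 and 367 bp). All but Pax7 still had a WTLPS peak, 9 of these of over 700 bp. Neurog1, a neuronal determination factor, had 3979 of the 5001 bp of its promoter in peaks in WT and 1467 in WTLPS. With peaks under 1 kb apart merged, 4 of 154 developmental transcription factors were in WT only, in place of 12. With −log10 q of at least 2 they were 31 of 137, with 4 in WTLPS only, against 44.4% of all promoters in WT only.

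Secreted developmental signals held wide WT peaks often, and lacked one in WTLPS about as often as all promoters. Of 72 ligands and antagonists, 54 held a WT peak over 1 kb, of which 34 also held one in WTLPS and 20 (37.0%) did not, against 42.9% over all promoters, at a median WT width of 2810 bp against 2836 bp. With −log10 q of at least 2, 15 of 30 were in WT only, against 44.4% of all promoters. The 12 with the widest WT peaks in WT only were Inhba (2192 bp and none), the bone morphogenetic proteins and their relatives Bmp2 (6586 and 600 bp), Bmp4 (3810 and 335 bp) and Gdf7 (3770 and 991 bp), the hedgehog proteins Dhh (6095 and 936 bp) and Shh (2237 and 535 bp), Fgf18 (3861 and 160 bp), Wnt7b (2265 and 351 bp), Wnt9a (1975 and 840 bp), Wnt1 (1953 and 937 bp), the Notch ligand Dll3 (2738 and 566 bp) and Chrd, an antagonist of bone morphogenetic proteins (3068 and 816 bp). Inhba, a subunit of activin A, was the only one of the 20 with H3K27ac at the promoter, in both conditions. All 20 held a KO peak over 1 kb, against 63.4% of all WT only promoters, of which 16.1% had H3K27ac in WT. Fgf20 (15711 and 3273 bp), Sfrp4 (11939 and 2808 bp), Gdf6 (10471 and 5463 bp) and Ihh (9651 and 1030 bp) led those in both lists. Gdf10 (667 bp in WT, 1129 bp in WTLPS) and Fgf17 (586 and 1390 bp) were in WTLPS only.

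Genes of other blood lineages held wide peaks at 16 of 48 promoters in WT, 10 of them also in WTLPS. The 33.3% with a WT peak lie above the share of all promoters (3942 of 21938), and the 6 of 16 in WT only (37.5%) lie near the 42.9% of all. With −log10 q of at least 2, 6 of 9 were in WT only, against 44.4% of all promoters. Gata3, a regulator of T cells, had 15139 bp in WT and 2040 bp in WTLPS, Lef1 15020 and 4269 bp, Pax5, the B cell commitment factor, 13566 and 2432 bp, and Ncr1, a receptor of natural killer cells, 10526 and 1119 bp. In WT only were Cd3e (6058 and 422 bp), Blk (3790 and 726 bp), Bcl11b (2908 and 786 bp), Tcf7, Hba-a1 (1347 and 650 bp, with a near-identical copy whose reads may be shared) and Mpo (1161 and 216 bp). Tbx21, which directs Th1 cells, was in WTLPS only, with 985 and 1076 bp, so its widths differed by little. Among 38 myeloid and dendritic cell genes, Flt3, the receptor of a dendritic cell growth factor, had peaks of 2798 bp in WT and 2851 bp in WTLPS, with H3K4me3 in both conditions. Of that list, 2 genes held a peak over 1 kb in WT and 1 in WTLPS.

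Genes of the Polycomb system held a peak over 1 kb at 5 of 33 promoters in each list (15.2%, against 3942 and 2388 of all 21938 promoters). A peak of any width lay at 10 of the 33 in WT and 11 in WTLPS, against 27.1 and 20.8% of all promoters. Cbx8 (11516 bp in WT, 2410 bp in WTLPS), Rybp (5574 and 4985 bp), Cbx2 (3429 and 2448 bp) and Bmi1 (2555 and 2597 bp), all subunits of Polycomb repressive complex 1, held a peak over 1 kb in both. Pcgf1 was in WT only (2168 bp, none in WTLPS) and Phc2 in WTLPS only (187 and 1336 bp). Of 7 cell cycle inhibitors, Cdkn2a (22240 and 8341 bp), Cdkn2b (3791 and 1356 bp) and Cdkn1c (1138 and 1236 bp) held one in both lists, the first 2 being well known Polycomb targets.

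**Figure D5:**
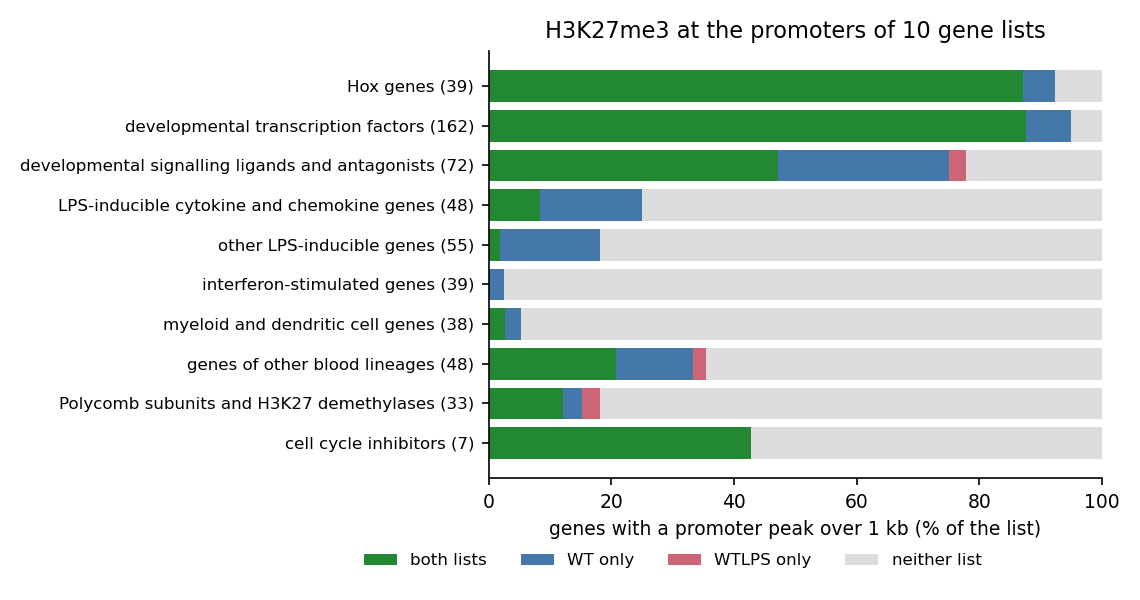
Share of the genes of 10 lists (% of the list, horizontal axis; genes found in the annotation in parentheses) with a promoter peak over 1 kb in both lists, in WT only, in WTLPS only or in neither. Both lists hold most Hox genes (34 of 39) and developmental transcription factors (142 of 162), and neither holds 36 of 48 and 45 of 55 LPS-inducible genes.

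H3K4me3 lay at 58.5% of promoters in both lists in WT and at 61.1% in WTLPS, at 47.4 and 49.0% in WT only, and at 57.4 and 57.3% in neither list. H3K27ac lay at 8.00 and 8.36% in both lists, at 16.1 and 15.4% in WT only, at 136 and 131 of the 524 without a WTLPS peak, and at 51.5 and 48.1% in neither list. H3K4me3 listed in WTLPS and not in WT was found at 4.80% of promoters in both lists, 3.13% in WT only and 1.14% of all. A p65 peak was listed at 3 WT only promoters in WT and 20 in WTLPS (1.18%, 0.766 to 1.82). In WTLPS it lay at 1.16% (0.790 to 1.69) of promoters in both lists and at 2.86% (2.65 to 3.09) of all promoters. WT only promoters were thus close to those in both lists for p65 and below all promoters, while for newly listed H3K4me3 they lay below both lists and above all promoters.

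At 121 WT only promoters an H3K4me3, H3K27ac or p65 peak was listed in WTLPS and not in WT (7.15%, 6.01 to 8.47), against 8.23% (7.16 to 9.43) in both lists and 5.70% (5.40 to 6.01) of all promoters. The reverse, a peak of 1 of these marks in WT and not in WTLPS, was found at 95 (5.61%, 4.61 to 6.81). For H3K27ac alone, 57 were new in WTLPS and 69 were listed in WT only. Those new in WTLPS with the widest WT peaks were Sim2, Hcfc2, Gdnf (9158 and 929 bp), Skor1 (7394 and 916 bp), Wdr36 (7125 and 149 bp), Gbp10 (7046 and 471 bp), Jazf1 (6905 and 425 bp), Fev (6810 and 763 bp), Nt5c1a (6441 and 631 bp), Sipa1l2 (6366 and 473 bp), Itga9 (5972 and 645 bp) and Onecut3 (5493 and 425 bp). H3K4me3 was the new mark at Sim2, Gdnf, a neurotrophic factor, Skor1, Fev, Nt5c1a, Itga9 and Onecut3. H3K27ac was new at Gbp10, an interferon-inducible GTPase, Jazf1, Nt5c1a and Sipa1l2, and p65 at Hcfc2, where H3K27ac was listed in WT and not in WTLPS, Wdr36 and Nt5c1a. Fev and Cryba2 share 1 WT peak.

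In CTCF-KO cells the same promoters were set side by side. A KO peak over 1 kb lay at 93.8% (92.7 to 94.7) of promoters in both lists, at 63.4% (61.1 to 65.6) in WT only, at 42.9% (38.8 to 47.2) of the 524 without a WTLPS peak, at 54.0% (45.7 to 62.0) in WTLPS only and at 18.5% of all. In KOLPS it lay at 34.5% (32.6 to 36.5) in both lists, at 6.02% (4.99 to 7.26) in WT only and at 5.76% (2.94 to 10.9) in WTLPS only. KOLPS had 915 promoters over 1 kb in all against 4050 in KO, and its peaks covered 18.7 Mb against 113 Mb. It thus lay below KO in each of these classes and did not tell WT only from WTLPS only promoters. In both genotypes the list after LPS held fewer promoters over 1 kb, with 1 list per condition. The background level also differed in CTCF-KO cells, at 1.11 fragments per base in KO and 0.98 in KOLPS. A short uniform stretch would need a fold of 2.84 in KO and 3.54 in KOLPS. The part of this in the KOLPS values was not tested.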

How the data were processed

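Immunoprecipitated chromatin was tagmented and sequenced with paired ends. Per the labels the authors used BWA 0.7.12, Picard 1.77 and MACS2 2.1.2 on mm10 (GRCm38), whereas the study's methods name other versions. Peaks were called against input. The methods describe calling for each replicate and elsewhere merging of replicates, and the lists do not say which applies. Broad regions carry 3 values deposited by the authors, each a mean over the region: a fold (ratio of pileup to background), −log10 p-value and −log10 q-value. All 4 H3K27me3 lists end at a −log10 q of 1.00. These values were not tested between lists. They served for the background level, for limits set on both lists and for the region with the highest −log10 p.

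Lists were compared with Python 3.11.15, numpy 2.4.6, pandas 2.3.3 and scipy 1.17.1, and interval functions were tested on simulated data. An overlap needed 1 bp. Start sites came from GENCODE vM21 (55413 genes) and sequence from the RefSeq GRCm38.p6 genome. Background coverage was the most frequent level that gave back fold and −log10 p (within 0.002) at 13.1% of WT and 17.3% of WTLPS peaks, so it rests on the short ones. Read numbers are not in the lists, but the study's reporting summary gives fewer H3K27me3 reads for WTLPS than for WT. No test across samples was possible with 1 list per condition. Members, gene lists and rules were chosen with earlier results of these data known.

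Named genes were, per direction, the 12 with the widest promoter peak and no peak in the other list (1 gene per peak, without Gm, Rik, Olfr and Vmn symbols, 58 and 4 genes), members of 10 gene lists with a peak over 1 kb in 1 list only, up to 4 per list with the widest peaks in both, the 10 widest regions, and WT only genes with another mark new in WTLPS. Printed bases do not overlap an annotated exon or lie on chromosome 18. Cxcl11, Mx2 and Clec7a were not matched. A few members that the rule names are not reported here. Alternatives are given in the closing section.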

Additional observations from a re-analysis of the deposited data

How the results depend on the processing

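Covered bases kept their direction in every setting run. WTLPS over WT was 0.484 as deposited, 0.520 with the higher of the lowest −log10 p applied to both lists, 0.586 with −log10 q of at least 2, 0.575 with the same number of peaks, 0.501 with peaks under 1 kb apart merged and 0.485 without chromosomes X and Y. The number of peaks did not keep it. WTLPS over WT was 0.683 as deposited, 1.13 with −log10 q of at least 2, and 2.57 with WT peaks taken by −log10 p until they covered the WTLPS bases, a setting chosen after seeing the data. In that last setting the shorter WT list follows from its construction.

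Promoters over 1 kb stayed more numerous in WT in every setting. With −log10 q of at least 2 they were 1832 in WT and 1275 in WTLPS, with 814 in WT only and 257 in WTLPS only. At equal covered bases there were 762 in WT only and 492 in WTLPS only, and 45.0% of the 1693 genes remained in WT only, the rest having no WT peak over 1 kb left. A promoter of 1 kb to either side gave 1541 in WTLPS, and a limit of 2 kb gave 1227 in WTLPS and 71 in WTLPS only. All annotated genes gave 3550 in WT only and 297 in WTLPS only. Of the 12 named genes per direction, 5 in WT only and 0 in WTLPS only remained with a promoter of 1 kb to either side, and 7 and 3 with −log10 q of at least 2.

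Overlap shares are given for under 1 kb, 1 to 5 kb and over 5 kb. With the shared lowest −log10 p, WT shares were 23.8 and 69.0% in the first 2 classes and WTLPS shares 58.4 and 94.6%. With −log10 q of at least 2 they were 10.3, 42.2 and 87.0% in WT and 24.2, 62.9 and 96.5% in WTLPS. With the same number of peaks they were 26.2 and 72.3% in WT and 52.9 and 91.7% in WTLPS, in the first 2 classes. Merging peaks gave 17.1, 62.6 and 98.6% in WT, and 56.5 and 94.2% in WTLPS. Equal covered bases gave 34.6, 84.9 and 100.0% in WT, and 26.9 and 66.8% in WTLPS. With at least 50% of the peak covered they were 11.6, 24.5 and 65.4% in WT, and 49.6 and 80.4% in WTLPS. At equal covered bases the WTLPS shares under 5 kb were below the WT shares, the opposite of the lists as deposited. The rise with width held in each list under each of these settings.

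No paired analysis was possible because each condition has 1 list. Lists that end at an FDR follow library depth, the fragments behind a region are not in the lists, and a region absent from a list was not called at that depth rather than shown to lack the mark.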

Other observations

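Chromosome X stood apart from the autosomes. H3K27me3 peaks covered 0.301% of it in WT and 0.0964% in WTLPS, a ratio of 0.320, while the ratio of covered bases ranged from 0.460 on chromosome 1 to 0.507 on chromosome 17 among autosomes. It held 663 and 289 peaks, too few to move the genome-wide ratio, which was 0.485 without chromosomes X and Y.

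The region with the highest −log10 p was the same in both lists, on chromosome 2 from 98666250 to 98667315 in WT. It was overlapped by peaks of 26 of the 30 lists and its fold was 2.00 in WT and 2.09 in WTLPS, below the median of 3.09 and 3.48 of all peaks of those lists.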
